A study of Mus musculus with 6 samples.

Results

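The clustered histone genes encode the H2A, H2B, H3 and H4 proteins of the nucleosome, and the linker histone (H1) genes encode the proteins that bind the DNA where it enters and leaves it. Members were all genes whose array cluster carried a single symbol beginning H1f, H1-, H2ac, H2bc, H3c or H4c and a digit, or the older Hist1h to Hist4h names. The rule found 30 genes of the 19938 named on the array: 8 H1, 4 H2A, 9 H2B, 3 H3 and 6 H4 genes, with 1 cluster each. In the reference annotation (assembly GRCm38.p6) 70 genes carry such symbols, and the other 40 had no cluster of their own. H1f0 was not analysed here. Of the members, 23 lie on chromosome 13, 4 on chromosome 3, 2 on chromosome 6 and 1 on chromosome 15.

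The arrays came from 3 Rb1L/L and 3 Rb1+/+ cultures of mouse embryonic fibroblasts (MEFs), the connective tissue cells cultured from embryos. Embryos were of stage E13.5 and cultures of passage 4 and were proliferating when total RNA was taken. Rb1 encodes pRb, which restrains E2F transcription factors; the L allele is known to alter the pocket of pRb that docks proteins with an LXCXE motif, and it is present in all cells of the embryo. The labels do not say which embryos gave which culture, and p-values measure the spread between these cultures, 1 array each. Values are log2 signals after RMA, and the medians of the 6 arrays lay between 6.393 and 6.449.

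Most clustered histone genes are transcribed in S phase, when new DNA is packed, from promoters gathered in a nuclear body that forms around the coactivator NPAT. Their mRNAs end in a stem-loop bound by SLBP rather than in a poly(A) tail, and they are degraded when replication stops; a few can also be made as polyadenylated forms. The H2A, H2B, H3 and H4 proteins are each encoded by several near-identical copies, so a probe can read more than 1 gene. H1f0, H1f10 and the histone variants are known to be made outside S phase as well, while H1f6, H1f7, H2ac1 and H2bc1 are known from the testis and H1f8 from the oocyte.

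Of the 6 members past the threshold, 5 had an entry in the promoter table, and H2bc4 had none. They are shown because these genes are the ones whose signals differed between the genotypes. Each run is the 150 bases before the annotated start, 5′ to 3′ on the gene's strand, from RefSeq (GRCm38.p6). Capitals mark matches on either strand to the octamer ATTTGCAT, the TATA box TATAAA, the CCAAT box CCAAT, the H1 box AAACACA and the E2F letters TTTCCCGC, TTTGGCGC, TTTGCCGC or TTTCGCGC.
H2ac4, chr13:23750938-23751087, plus strand: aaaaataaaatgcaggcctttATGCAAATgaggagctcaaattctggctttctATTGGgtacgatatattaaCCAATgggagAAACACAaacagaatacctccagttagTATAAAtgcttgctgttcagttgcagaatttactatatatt
H1f1, chr13:23763518-23763667, plus strand: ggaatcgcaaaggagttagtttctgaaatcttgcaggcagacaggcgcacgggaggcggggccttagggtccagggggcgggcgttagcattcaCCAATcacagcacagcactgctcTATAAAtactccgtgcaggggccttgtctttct
H1f5, chr13:21780626-21780775, minus strand: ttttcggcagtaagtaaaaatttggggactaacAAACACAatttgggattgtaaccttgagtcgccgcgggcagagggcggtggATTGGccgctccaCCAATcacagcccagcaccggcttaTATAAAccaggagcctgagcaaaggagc
H2bc18, chr3:96269550-96269699, plus strand: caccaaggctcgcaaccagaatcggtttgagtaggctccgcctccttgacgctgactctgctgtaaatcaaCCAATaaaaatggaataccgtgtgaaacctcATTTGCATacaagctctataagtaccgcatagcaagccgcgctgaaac
H3c4, chr13:23575613-23575762, plus strand: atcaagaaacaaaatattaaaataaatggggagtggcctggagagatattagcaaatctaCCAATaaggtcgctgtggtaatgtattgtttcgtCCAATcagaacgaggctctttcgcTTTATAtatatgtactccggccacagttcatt

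All 5 promoters held CCAAT, and 4 held TATAAA, in the 250 bases before the start; H2bc18 was the one without TATAAA. Of all 26 members with a promoter entry, 20 held CCAAT, among them all 7 H2B and all 4 H2A genes, and 14 held TATAAA. Over the 32851 promoters of the reference the shares were 33.8% for CCAAT and 12.4% for TATAAA. The octamer, known as the H2B promoter element, stood in the windows of H2ac4 and H2bc18. It was found in 5 of 7 H2B and 3 of 4 H2A members with a promoter entry and in none of the 8 H1, 2 H3 and 5 H4 members, against 1.6% of all promoters. AAACACA was found in 4 of 8 H1 members and in 8 of the 26 members with an entry, against 6.25% of all promoters. The E2F letters were in 1 of the 26 windows, that of an H2B gene, against 1.86% of all, and in none of the 5 shown. These are matches of letters, and motifs did not overlap in the printed windows.

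The histone genes differed in both directions between the genotypes, and 21 of the 27 tested did not pass. Of 27 members bright enough to be tested, H2ac4, H1f1, H1f5 and H2bc18 rose in Rb1L/L cultures and H3c4 and H2bc4 fell (limma, Benjamini-Hochberg adjusted p under 0.05 over all genes). That is 22.2% of the tested members, beside 12.2% of all 15455 tested genes (7.12% higher and 5.08% lower). The median log2 difference was 0.023 over the members and -0.021 over all tested genes. At an unadjusted p under 0.05 there were 9 members (28.7% of all genes). The test took genes with a mean above log2 5.084; 90% of 1190 odorant and pheromone receptor genes, which fibroblasts barely use, lie at or under it. H2ac8 (mean log2 4.63), H2bc21 (4.65) and H3c7 (4.05) lay below it, and the dimmest member tested was H1f6 (5.21).

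**Figure D1:**
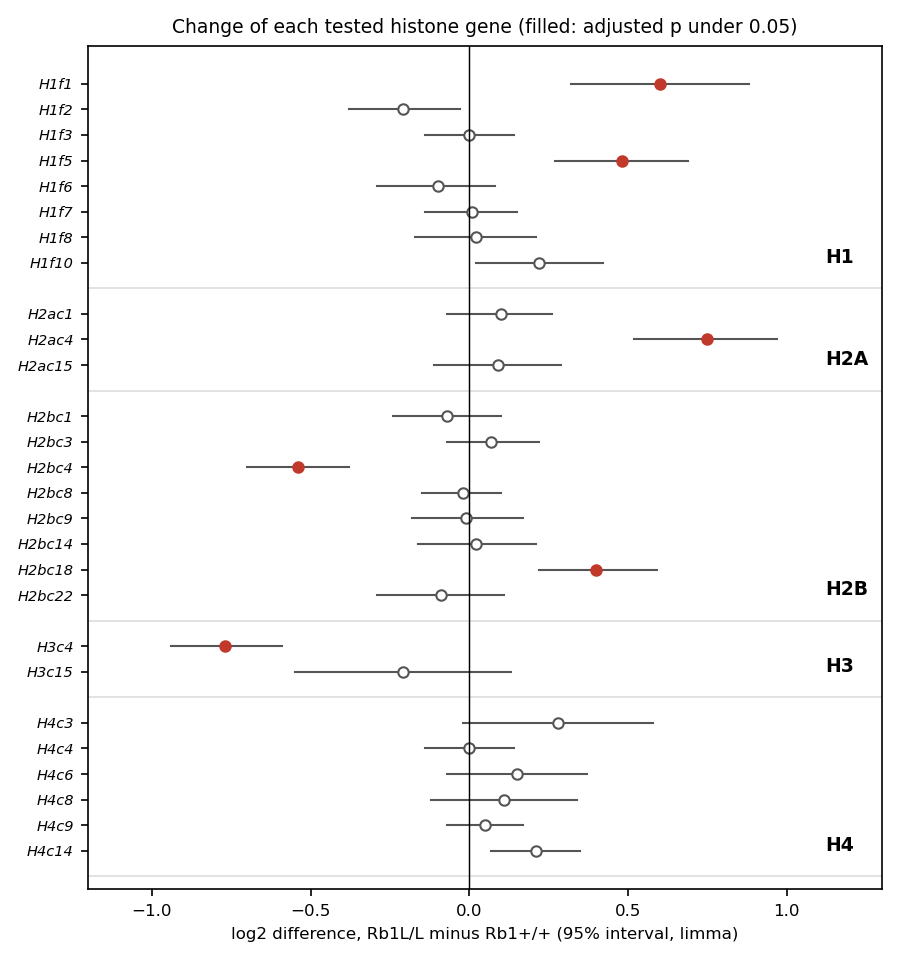
Log2 difference, Rb1L/L minus Rb1+/+, of the 27 tested histone genes, grouped by histone type, with 95% intervals from limma; filled points have an adjusted p under 0.05. The 6 filled points run from -0.77 for H3c4 to 0.75 for H2ac4, and the 21 open points lie between -0.21 and 0.28.

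Of the linker histone genes, H1f1 and H1f5 rose. H1f1 encodes the H1.1 subtype, made mainly in replicating cells. It measured log2 9.87, 9.97 and 10.20 in the Rb1L/L cultures, against 9.19, 9.62 and 9.45 in the Rb1+/+ cultures (replicates 1, 2 and 3). The groups did not overlap, and H1f1 was 1.51-fold higher in Rb1L/L (log2 difference 0.60 ± 0.12 SE, limma adjusted p = 0.0206). H1f5, which encodes the H1.5 subtype, measured 10.48, 10.55 and 10.52 in Rb1L/L and 9.91, 10.25 and 9.95 in Rb1+/+ cultures. Again every Rb1L/L array lay above every Rb1+/+ array, and the Rb1L/L arrays were the closer together (SD 0.032 against 0.186, n = 3 each). H1f5 was 1.40-fold higher (0.48 ± 0.09 SE, limma adjusted p = 0.017).

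H1f2, which encodes the abundant H1.2 subtype, lay the other way. Its values were 10.57, 10.54 and 10.54 in Rb1L/L and 10.65, 10.71 and 10.91 in Rb1+/+ cultures. The groups did not overlap, but the difference of -0.21 ± 0.08 SE did not pass (limma adjusted p = 0.115). H1f10, a linker histone not tied to S phase, measured 8.99, 9.14 and 9.32 in Rb1L/L and 8.89, 8.91 and 9.0 in Rb1+/+ cultures. The lowest Rb1L/L value lay just under the highest Rb1+/+ value (0.22 ± 0.09 SE, limma adjusted p = 0.136). H1f3, for the H1.3 subtype, was near level 5.85 in both groups, with a 95% interval of the difference from -0.14 to 0.14. The germ cell genes H1f6, H1f7 and H1f8 averaged 5.16 ± 0.15, 6.75 ± 0.08 and 5.27 ± 0.12 in Rb1L/L and 5.26 ± 0.05, 6.74 ± 0.05 and 5.25 ± 0.10 in Rb1+/+ cultures (SD, n = 3 each), and their differences lay between -0.10 and 0.02. In all, 2 of the 8 H1 genes rose and none fell, beside 7.12% higher and 5.08% lower among all tested genes. The median log2 difference of the 8 was 0.014. With a stricter filter (a mean above log2 6.452), which left out H1f3, H1f6 and H1f8, it was 0.22.

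Among the core histones, H2ac4, which encodes a replication-dependent H2A, had the largest increase of the 27. It measured log2 8.46, 8.55 and 8.49 in Rb1L/L and 7.63, 7.99 and 7.65 in Rb1+/+ cultures. The Rb1L/L arrays lay within a narrow band above all Rb1+/+ arrays, 1.68-fold higher on average (0.75 ± 0.10 SE, limma adjusted p = 0.00476). The other H2A genes did not pass. H2ac15 averaged 11.97 ± 0.03 in Rb1L/L and 11.88 ± 0.17 in Rb1+/+ cultures (difference 0.09, 95% interval -0.11 to 0.29). H2ac1, the testis H2A gene, averaged 7.85 ± 0.03 in Rb1L/L and 7.76 ± 0.12 in Rb1+/+ cultures (SD, n = 3 each; difference 0.10, interval -0.07 to 0.26).

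H2B genes went both ways. H2bc18, the one changed gene on chromosome 3, measured 8.53, 8.42 and 8.40 in Rb1L/L and 7.90, 8.08 and 8.16 in Rb1+/+ cultures. It was 1.32-fold higher with no overlap (0.40 ± 0.08 SE, limma adjusted p = 0.0184). H2bc4 measured 11.62, 11.46 and 11.55 in Rb1L/L, against 12.06, 12.18 and 12.01 in Rb1+/+ cultures. Each Rb1L/L array lay below each Rb1+/+ array, 1.45-fold lower on average (-0.54 ± 0.07 SE, limma adjusted p = 0.00476). H2bc4 is annotated over 8282 bp, whereas most members span under 1000 bp; 6 members exceed that, the others being H2bc22 (14079 bp), H1f8 (5312 bp), H2bc21 (2667 bp), H1f7 (1326 bp) and H1f10 (1062 bp). The 6 further H2B genes tested had differences between -0.09 (H2bc22) and 0.07 (H2bc3). H2bc14, at 11.29 ± 0.05 in Rb1L/L and 11.27 ± 0.15 in Rb1+/+ cultures (SD, n = 3 each), differed by 0.02 with an interval from -0.16 to 0.21. H2bc9 (-0.01), H2bc8 (-0.02) and the testis gene H2bc1 (-0.07) completed the H2B set, whose median was -0.015.

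H3c4 had the largest decrease. It encodes a replication-dependent H3 and measured 6.80, 6.83 and 6.58 in Rb1L/L and 7.56, 7.48 and 7.46 in Rb1+/+ cultures. The groups lay well apart, 1.70-fold lower in Rb1L/L (-0.77 ± 0.08 SE, limma adjusted p = 0.00265). H3c15 measured 5.26, 5.88 and 5.79 in Rb1L/L and 5.74, 5.90 and 5.91 in Rb1+/+ cultures. Its difference of -0.21 ± 0.15 SE did not pass (limma adjusted p = 0.401), and Rb1L/L replicate 1 lay apart from the other 5 arrays. The clusters of H3c4, H3c15 and H1f2 list no RefSeq mRNA, unlike those of the other 27 members. The differences of these 3 were -0.77, -0.21 and -0.21.

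None of the 6 H4 genes passed, beside 12.2% of all tested genes, and 5 of their 6 differences were above 0 (median 0.132). The median over all tested genes was -0.021. Without Rb1+/+ replicate 1 the H4 median was 0.069. H4c14 measured 12.24, 12.20 and 12.24 in Rb1L/L and 11.92, 12.08 and 12.05 in Rb1+/+ cultures, with no overlap (0.21 ± 0.06 SE, limma adjusted p = 0.062). It passed after median centring (0.23, adjusted p = 0.0471), with the stricter filter (0.21, adjusted p = 0.0444) and with trended, robust variances (0.21, adjusted p = 0.0212), and its adjusted p over the 17 alternatives ran from 0.0212 to 0.31. H4c3 measured 8.85, 8.93 and 9.01 in Rb1L/L and 8.37, 8.94 and 8.63 in Rb1+/+ cultures, so that Rb1+/+ replicate 2 fell inside the Rb1L/L range (0.28 ± 0.13 SE, limma adjusted p = 0.196). Without that array H4c3 passed at 0.43 (limma adjusted p = 0.0364), the 1 of 17 alternatives in which it did. Without Rb1+/+ replicate 1 its difference was 0.14 (limma adjusted p = 0.439). H4c6 differed by 0.15, H4c8 by 0.11 and H4c9 by 0.05. H4c4 averaged 13.21 ± 0.06 in Rb1L/L and 13.21 ± 0.07 in Rb1+/+ cultures (SD, n = 3 each), with an interval from -0.14 to 0.14.

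**Figure D2:**
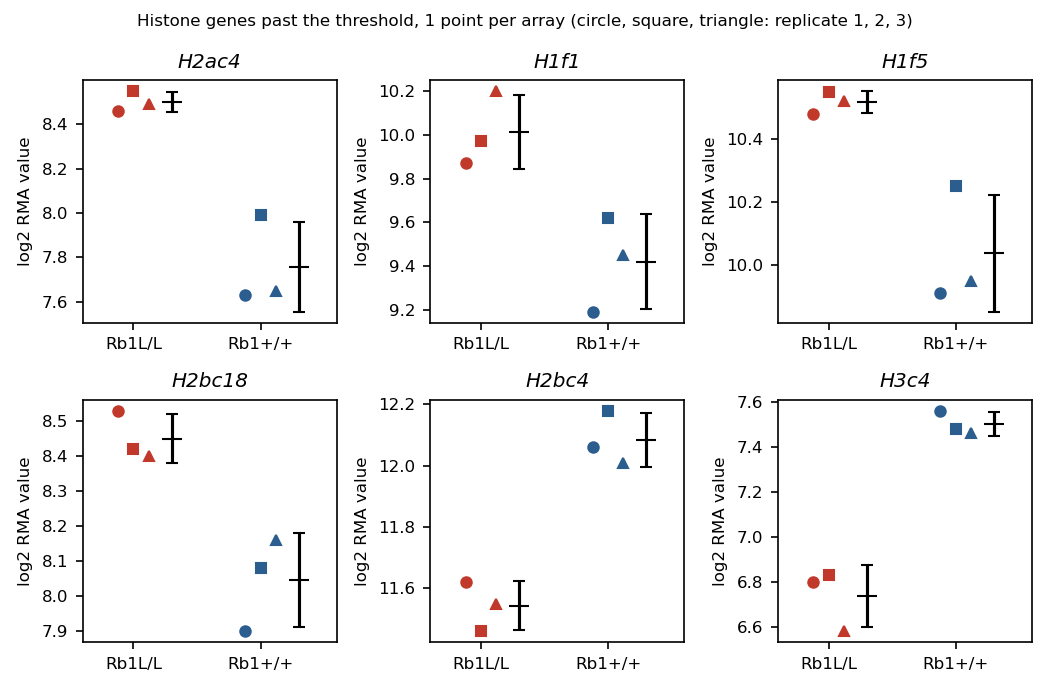
Log2 RMA values of the 6 histone genes past the threshold, 1 point per array, Rb1L/L left and Rb1+/+ right, with the mean and SD as black bars (n = 3 each). In each panel the groups do not overlap, with H2ac4 at 8.46 to 8.55 in Rb1L/L and 7.63 to 7.99 in Rb1+/+ cultures, and H3c4 at 6.58 to 6.83 in Rb1L/L and 7.46 to 7.56 in Rb1+/+ cultures.

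The labelling protocol names pairs of MEF cultures, and same-numbered cultures were read as pairs. The paired differences of H2ac4 were 0.82, 0.57 and 0.84, those of H1f1 0.68, 0.36 and 0.75, and those of H3c4 -0.76, -0.66 and -0.88. H1f5 gave 0.57, 0.30 and 0.57, H2bc18 gave 0.63, 0.34 and 0.24, and H2bc4 gave -0.44, -0.72 and -0.46. Since the groups did not overlap for these 6, their pairs could not differ in sign. Over the 27 tested members, 7 were higher in all 3 pairs (23.0% of all genes) and 4 were lower (29.3% of all genes). With the pair number as a block the same 6 members passed (14.4% of all genes), at adjusted p from 0.00194 for H3c4 to 0.0249 for H2bc18. The groups did not overlap for 6 members that were higher and 3 that were lower, against 16.2% and 18.3% of all tested genes.

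With fewer arrays fewer genes passed over the whole array. The same held for the histone members, except without Rb1+/+ replicate 2, when 7 passed against 6 with all arrays. Of all 15455 tested genes, 629, 622 and 1187 passed when Rb1L/L replicate 1, 2 or 3 was left out, and 822, 1441 and 911 when Rb1+/+ replicate 1, 2 or 3 was left out, against 1885 with all arrays. In these 6 fits H3c4, H2bc4 and H2ac4 always passed, H2bc18 passed in 4, and H1f1 and H1f5 in 2 each. The log2 differences stayed at 0.48 to 0.70 for H1f1, 0.42 to 0.59 for H1f5 and 0.33 to 0.46 for H2bc18, and where a call was lost the limma adjusted p was between 0.0524 and 0.0675. The number of members that rose was 2 without Rb1L/L replicate 1, 1 without Rb1L/L replicate 2, 3 without Rb1L/L replicate 3, and 2, 5 and 2 without Rb1+/+ replicate 1, 2 and 3. Without both arrays numbered 1, 2 or 3 it was 0, 3 and 0, and the number that fell was 1, 2 and 2, while 92, 468 and 462 of all genes passed. H3c4 was the member that passed in all of these fits, H2bc4 having missed without the arrays numbered 1 (adjusted p = 0.0667). Cultures numbered 1 differed in sex from the rest. The Y-linked gene Eif2s3y read 8.47 in Rb1L/L replicate 1 and 8.36 in Rb1+/+ replicate 1, and 3.63 or lower in the other 4 arrays, while Xist read 4.79 and 5.13 in the same 2 and 11.44 or higher elsewhere.

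Within the Rb1+/+ group the histone genes leaned together. Whether all tested genes leaned the same way was not tested. Rb1+/+ replicate 1 was the lowest of its group for 17 of the 27 members and replicate 2 the highest for 14. Their median deviations from the group mean were -0.088 and 0.059, and those of 40 S phase genes in the same arrays were -0.074 and 0.068. In the Rb1L/L group the median deviations of the members were -0.009, -0.005 and 0.008 in replicates 1, 2 and 3. Those of the S phase genes in the same arrays were -0.002, 0.046 and -0.044, so the 2 sets did not lean alike there. The part of this spread in the genotype differences was not tested beyond the fits without single arrays.

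**Figure D3:**
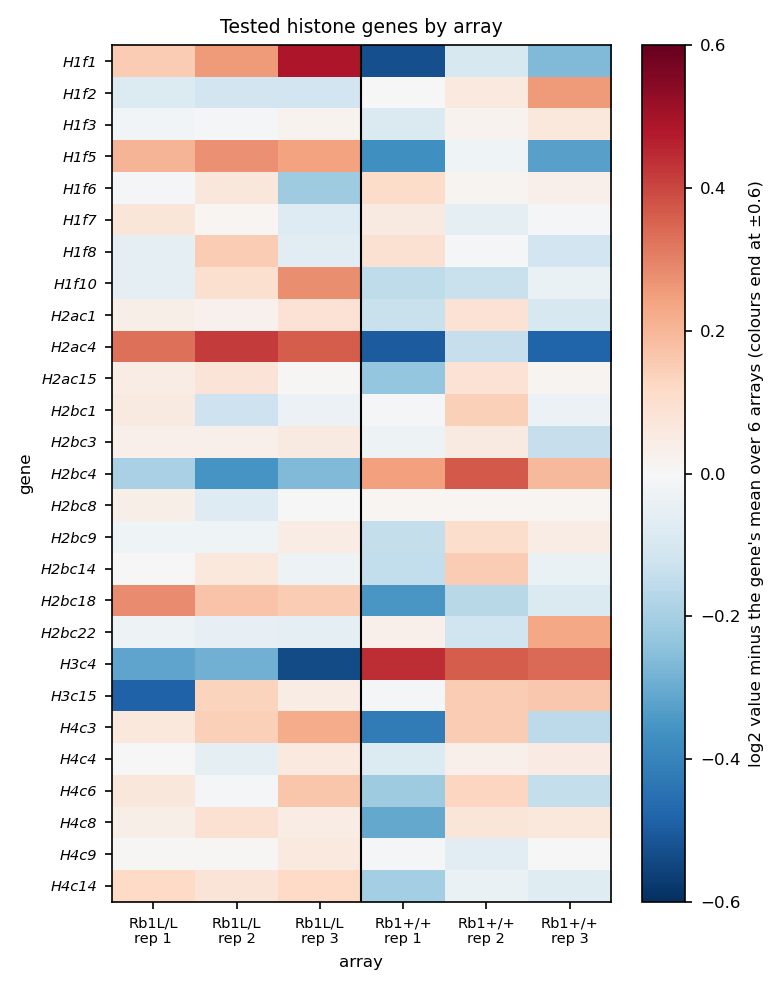
Log2 value of each tested histone gene minus its mean over the 6 arrays, Rb1L/L arrays left of the line and Rb1+/+ arrays right, with colours ending at ±0.6. Most rows are pale; H1f1, H1f5, H2ac4 and H2bc18 are red on the left and H2bc4 and H3c4 on the right, and Rb1+/+ replicate 1 is blue for many rows.

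Close copies were read again by clusters that list several histone genes. These 26 clusters cannot be assigned to a gene and are not members; they were added to the fit after the files were seen. None passed (12.2% of all features in that fit), and the smallest adjusted p was 0.0991. The 10 H3 clusters, each listing 12 H3 genes with H3c4 among them, had differences of 0.09 to 0.18. Of these clusters 6 had an unadjusted p under 0.05 (limma), beside 28.7% of all tested genes in the main fit. One of them ran at 13.44, 13.41 and 13.51 in Rb1L/L and 13.20, 13.32 and 13.30 in Rb1+/+ cultures. The cluster with H3c4 as its single gene lay at -0.77, with the opposite sign. That cluster averaged log2 7.12, far below the shared H3 clusters, which lay near the array maxima of 13.85 to 14.16. Whether signal level bears on the differences was not tested. The 7 H2B clusters, which all list H2bc4, differed by -0.05 to 0.02. The 2 clusters counted as H2A differed by 0.12 and 0.14. They list 19 and 20 genes, H2ac4 and also H3c4 among them, so they mix H2A and H3 genes. H4 clusters listing 11 genes differed by at most 0.02 and a dimmer one listing 2 genes by 0.27 ± 0.17 SE. The clusters of H2bc4 and H2ac4 alone lay at -0.54 and 0.75. Which transcripts each set of probes reads was not tested. Among the 7 H2B clusters 2 held identical values, as did 2 of the 6 H4 clusters, so they are not independent readings. The 10 H3 clusters lay close together, with means of 13.23 to 13.39, and cannot be counted as independent readings either. H1f4 shares a cluster with H2bc6, which differed by 0.02.

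**Figure D4:**
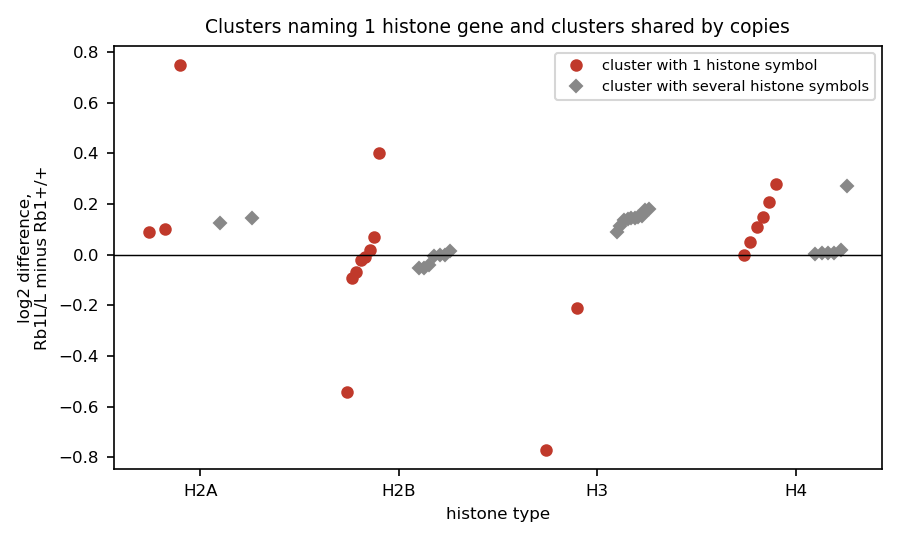
Log2 difference, Rb1L/L minus Rb1+/+, of clusters with 1 histone symbol (red circles, the tested members) and of clusters with several (grey diamonds), by histone type. The 10 shared H3 clusters lie at 0.09 to 0.18, apart from H3c4 at -0.77, and the shared H2B clusters lie between -0.05 and 0.02. The shared clusters drawn under H2A list H3 genes as well.

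H2A and H2B genes often lie head to head with a shared promoter region. By the promoter entries, 9 pairs of histone genes start on opposite strands within 1000 bp, and all 9 join an H2A and an H2B gene. Both partners were members in 2 of them. H2ac1 and H2bc1, whose starts lie 281 bp apart, differed by 0.10 and -0.07. H2bc8 differed by -0.02 beside H2ac8, which was too dim to test. Of the 5 changed members with a promoter entry, none belonged to a listed pair, and H2bc4, which has no entry, could not be looked up.

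The genes that serve histone synthesis were described beside the histone genes, and the lists were not tested against each other. Of 36 tested genes for histone mRNA processing and histone gene control, 7 rose and none fell (median 0.101), beside 7.12% higher and 5.08% lower among all tested genes. Ccne1, the cyclin E1 gene, whose kinase acts on NPAT, rose by 0.42 ± 0.06 SE and its kinase gene Cdk2 by 0.41 ± 0.06 (limma adjusted p = 0.00593 and 0.00745). Srrt, which encodes the cap-complex partner ARS2, rose by 0.42 and the negative elongation factor gene Nelfe by 0.29. Casp8ap2, which encodes the histone locus body protein FLASH, rose by 0.27 (limma adjusted p = 0.0335). Slbp itself measured 9.22, 9.29 and 9.08 in Rb1L/L and 9.0, 9.10 and 8.92 in Rb1+/+ cultures, a difference of 0.19 that did not pass (adjusted p = 0.134). Npat (-0.01) and the H4 gene activator gene Hinfp (0.10) did not pass either. The count that rose was 3 without any 1 Rb1L/L array and 4 without any 1 Rb1+/+ array, fits in which 622 to 1441 of all genes passed against 1885 with all arrays.

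Histone chaperones, which carry new histones to DNA, had 10 genes of 26 that rose and 1 that fell (median 0.172), against the same 7.12% and 5.08% of all tested genes. Asf1a, which passes on H3 and H4, rose by 0.56 ± 0.06 SE, and Chaf1a of the CAF-1 complex, which loads them behind the fork, by 0.40 ± 0.06 (limma adjusted p = 0.00353 and 0.00593). Dnajc9, an H3 and H4 co-chaperone gene, rose by 0.76 ± 0.11 and Nasp, which encodes the store for soluble H3 and H4, by 0.64 ± 0.11. Ubn2, of the HIRA pathway for H3.3, was the gene that fell (-0.41 ± 0.06, limma adjusted p = 0.00784). Without Rb1L/L replicate 2, when 622 of all genes passed, the count that rose was 6, and without any other array 7 to 9.

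Of 9 tested histone variant genes 3 rose and none fell (median 0.228), where 7.12% of all tested genes were higher. H2az2, a variant at promoters, measured 10.10, 10.09 and 9.95 in Rb1L/L and 9.38, 9.52 and 9.42 in Rb1+/+ cultures (0.61 ± 0.07 SE, limma adjusted p = 0.00306). Cenpa, the H3 variant of centromeres, rose by 0.77 ± 0.12 and Macroh2a1, linked to silent chromatin, by 0.43 ± 0.07. H2az1 (0.23) and H2ax (0.34), the variant that marks DNA breaks, did not pass (limma adjusted p = 0.0934 and 0.104). Without Rb1L/L replicate 1, when 629 of all genes passed, the count was 2, and without any other array 3 or 4.

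Of 40 tested S phase genes 31 rose and none fell, where 7.12% of all tested genes were higher. Their median was 0.397, beside 0.023 for the clustered and linker histones. The latter include testis and oocyte genes, and their median was 0.074 with the stricter filter. Mcm7, Mcm6, Dnmt1 and Rfc2, for the helicase, the maintenance methyltransferase and the clamp loader, rose by 0.64, 0.83, 0.55 and 0.60. The count was 17 without Rb1L/L replicate 1, 16 without Rb1L/L replicate 2 and 20 without Rb1+/+ replicate 1, when 629, 622 and 822 of all genes passed, and 23 to 27 without any other array. Without both arrays numbered 1 it was 0, when 92 of all genes passed. Both lists are read from the same 6 arrays, and the difference between their medians is a description.

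**Figure D5:**
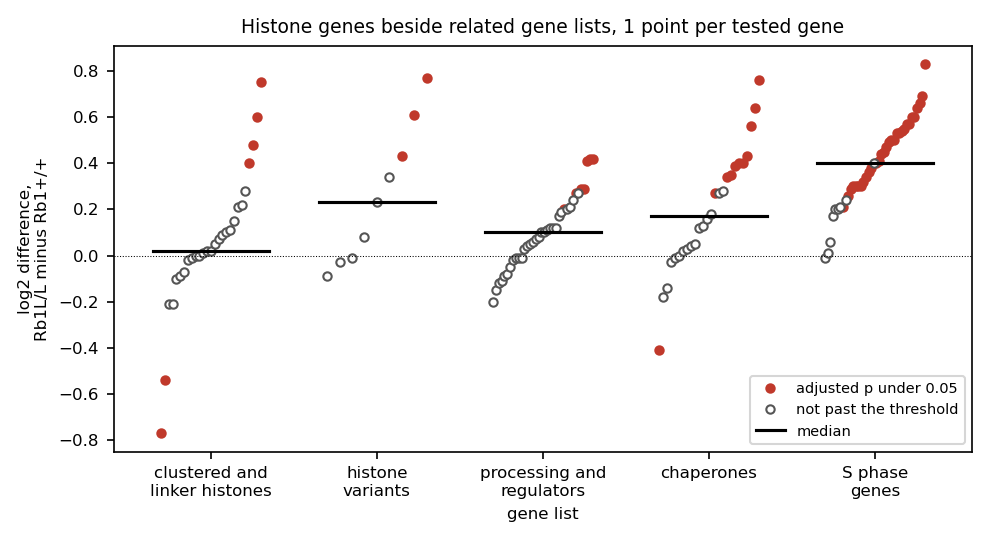
Log2 difference, Rb1L/L minus Rb1+/+, of each tested gene in 5 lists, with filled points past the threshold and bars at the list medians. The clustered and linker histones spread from -0.77 to 0.75 around 0.023, and the S phase genes centre on 0.397.

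Pearson correlations between arrays were 0.9948 to 0.996 for the same genotype and 0.9873 to 0.9927 across genotypes. Rb1 averaged 8.93 ± 0.07 in Rb1L/L and 8.83 ± 0.19 in Rb1+/+ cultures (SD, n = 3 each), which does not check the labels because the altered allele is transcribed. All 10 fibroblast markers were above the filter, from Col3a1 at 8.84 to Vim at 13.43. Summed over a list, fibroblast markers ran from 15.34 to 15.38 in Rb1L/L and 15.43 to 15.50 in Rb1+/+ cultures (log2), with 1 of 10 lower (Col3a1), and 2 with the replicate block, which added Dcn (limma adjusted p = 0.0346 with the block and 0.113 without). Macrophage and blood markers ran from 11.64 to 12.21 in Rb1L/L and 11.38 to 12.12 in Rb1+/+ cultures. Of 13 tested, 3 were higher (Adgre1, Cd14 and C1qa) and 1 was lower (Cx3cr1), beside 7.12% and 5.08% of all tested genes. Neural markers ran from 12.25 to 12.45 in Rb1L/L and 12.64 to 12.73 in Rb1+/+ cultures, with 3 of 7 lower (Fabp7, Ncam1 and Tubb3). Of the endothelial markers 1 of 7 was higher (Kdr). No tested epithelial, skeletal muscle or male germ cell marker passed (limma, with 7, 7 and 4 tested). The part of these cells in the histone values was not tested, and in whole cultures fewer cells of a type and less RNA per cell cannot be told apart.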

How the data were processed

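Each of the 6 cultures gave 1 array. The deposited table holds log2 values made by the authors with RMA and Partek, per the submitters' processing notes. Versions of both and the genome build were not given in the sources used here. RNA was labelled with a whole-transcript kit, per the labels' protocols. Arrays carry no read depth; their number limits the precision.

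Of 35556 clusters, 21789 carried 1 gene symbol, 1621 several and 12146 none in the platform annotation; 21766 of the first were found in the reference table (GRCm38.p6). Clusters with 1 symbol were used, the brightest per gene. Genes with a mean above log2 5.084 were fitted together by lmFit and eBayes of limma 3.58.1 (R 4.3.3), Rb1L/L minus Rb1+/+, with Benjamini-Hochberg adjustment and a threshold of 0.05; SE is the moderated standard error and intervals are 95% from the same fit. The procedure was tested on simulated data in which the arrays varied independently, unlike the arrays here. Across tested genes, the 2 arrays of a number deviated together (r = 0.301, 0.243 and 0.299, or 0.124, 0.198 and 0.261 leaving out genes on X and Y; over the 27 tested members 0.29, -0.14 and 0.15, so the members of number 2 did not deviate together), and from the all-gene values the numbers were taken as pairs, in a fit with the replicate number as a block.

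The members and the lists were chosen with earlier results of these data known, and lists were described by counts and medians, without a test. Named genes were the members past the threshold, the brightest and the most changed other member of each histone type, and all H1 members. Also named were up to 4 genes of smallest p per list, and Rb1, Slbp, Npat, Hinfp and Casp8ap2. Xist and Eif2s3y were named for the numbered cultures. The remaining members, H2ax, Nasp, Nfyc, Mcm5 and the cell type markers given by name were named after their values were seen. Alternatives covered the block, single arrays and pairs left out, normalization, filters, the choice of cluster, variance moderation and array weights. Protein sequences were not used here.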

Additional observations from a re-analysis of the deposited data

How the results depend on the processing

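H3c4 passed in all 17 alternatives (log2 difference -0.82 to -0.69, adjusted p at most 0.0472), H2bc4 in 16 (-0.59 to -0.45), H2ac4 in 15 (0.69 to 0.86), H2bc18 in 12 (0.29 to 0.49), and H1f1 and H1f5 in 11 each (0.48 to 0.72 and 0.42 to 0.59). All losses of these calls came in fits that left out arrays and so held fewer samples. Without Rb1+/+ replicate 2 none of these calls was lost, and the cause of the losses was not tested. The replicate block gave 4 members higher and 2 lower, as without it, and changed no histone call; in the 4 other lists of histone biology and S phase it ended the calls of Nfyc and Mcm5, and among the cell type markers it added Dcn, lower. Without 1 array, 1 to 5 members were higher and 2 lower; the variants had 2 to 4 higher, processing genes 3 to 4, chaperones 6 to 9 higher and 1 lower, and S phase genes 16 to 27. Without both arrays numbered 1 the counts higher were 0 members, 1 variant, and 0 processing, 0 chaperone and 0 S phase genes, with 1 member and 0 chaperones lower; in that fit 92 of 15455 genes passed at all. Without both numbered 2 they were 1 processing, 3 chaperone and 11 S phase genes, and without both numbered 3 they were 0 members, 3 processing, 5 chaperone and 16 S phase genes. Median centring moved the median of all genes from -0.021 to 0.00 and left the direction of all 6 called members. With the stricter filter the H1 median moved from 0.014 to 0.22. The H3 median moved from -0.486 to -0.766 with that filter, read from H3c4 alone, and to -0.207 with no filter. The H2B median was -0.015 in the main fit and 0.043 without both arrays numbered 2.

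Signs turned for members with differences near 0. Without both arrays numbered 2, H1f3 was 0.01, H1f7 -0.02, H1f8 -0.05, H2bc1 0.03, H2bc8 0.01, H2bc9 0.06 and H4c4 0.04. Without both numbered 1, H2ac15 was -0.00, H2bc14 -0.04 and H4c8 -0.00; without both numbered 3, H1f3 was 0.02 and H2bc22 0.00. Median centring gave H1f3, H2bc9 and H4c4 0.02 each, and quantile normalization gave H1f3 0.02 and H4c4 0.04. Without 1 array, differences ran over both signs, at -0.05 to 0.03 for H1f3, -0.03 to 0.05 for H1f7, -0.05 to 0.07 for H1f8, -0.00 to 0.16 for H2ac15, -0.05 to 0.01 for H2bc8, -0.08 to 0.04 for H2bc9, -0.04 to 0.10 for H2bc14, -0.04 to 0.03 for H4c4 and -0.01 to 0.18 for H4c8. The cause was not tested. Probes shared by near-identical copies limit what a difference near 0 shows, and 3 cultures per genotype limit which differences can pass.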
